A study of Mus musculus with 4 samples.

Results

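The mitosis and spindle genes are 45 mouse genes for the cyclins, kinases, kinesins, kinetochore proteins and chromosome proteins that carry a cell through division. They were taken by symbol from a list of such genes, out of 32812 genes with a symbol in the deposited count table. The table holds RNA sequencing counts from female germline stem cells of the strain C57BL/6, a line kept in culture for more than 20 passages. It has 2 libraries from cells given spermidine (SPD), a polyamine, for 4 h and 2 from control cells. All 4 libraries share strain and passage label, and no dose is stated in the sources used here. The series title names cytoprotective autophagy as its subject, and the comparison asks which transcripts differ after the treatment. Nothing in the labels ties the libraries to separate cultures, so each p-value describes only the spread between these libraries, which may be technical.

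Mitosis is driven by CDK1 bound to a B-type cyclin. Polo and Aurora kinases then build the spindle, the checkpoint proteins hold the cell until every kinetochore is attached, and the anaphase promoting complex with its activator CDC20 destroys securin and cyclin B to end the phase. Most of these genes are switched on together late in the cell cycle. The shared control is known to run through a promoter element called CHR (cell cycle genes homology region), which the DREAM repressor and the B-MYB and FOXM1 activators use, and through boxes bound by the factor NF-Y. Their transcripts are therefore widely used to read how many cells of a sample are dividing.

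The promoters of the 8 members with at least 50 counts in every library are shown because these members carry the measurements. Each is the 300 bases from 250 before to 50 after the annotated start, from RefSeq on GRCm38.p6, written 5′ to 3′ on the strand of the gene. Capitals mark the CHR core TTTGAA and the NF-Y box CCAAT, each on either strand. In Cdca8 a CHR match and an NF-Y match share 1 base, and in Ube2c a pair of NF-Y matches on opposite strands overlap.
Cdk1: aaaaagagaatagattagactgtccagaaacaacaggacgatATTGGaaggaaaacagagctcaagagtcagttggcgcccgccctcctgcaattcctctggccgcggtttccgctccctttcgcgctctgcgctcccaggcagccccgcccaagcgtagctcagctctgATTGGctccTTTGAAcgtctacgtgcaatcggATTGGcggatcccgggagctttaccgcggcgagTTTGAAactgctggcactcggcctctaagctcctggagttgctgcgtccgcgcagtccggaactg
Ccnb1: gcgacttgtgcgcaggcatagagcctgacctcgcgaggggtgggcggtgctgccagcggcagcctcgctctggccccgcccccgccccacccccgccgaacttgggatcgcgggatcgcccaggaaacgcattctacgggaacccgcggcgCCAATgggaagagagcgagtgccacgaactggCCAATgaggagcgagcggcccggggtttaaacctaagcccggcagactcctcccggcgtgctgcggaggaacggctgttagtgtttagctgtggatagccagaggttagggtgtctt
Ccnb2: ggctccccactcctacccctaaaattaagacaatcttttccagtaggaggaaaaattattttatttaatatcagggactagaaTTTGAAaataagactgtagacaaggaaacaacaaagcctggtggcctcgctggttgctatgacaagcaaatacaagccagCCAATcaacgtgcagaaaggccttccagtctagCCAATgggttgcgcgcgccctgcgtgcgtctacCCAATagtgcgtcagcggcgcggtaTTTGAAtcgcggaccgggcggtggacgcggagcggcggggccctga
Plk1: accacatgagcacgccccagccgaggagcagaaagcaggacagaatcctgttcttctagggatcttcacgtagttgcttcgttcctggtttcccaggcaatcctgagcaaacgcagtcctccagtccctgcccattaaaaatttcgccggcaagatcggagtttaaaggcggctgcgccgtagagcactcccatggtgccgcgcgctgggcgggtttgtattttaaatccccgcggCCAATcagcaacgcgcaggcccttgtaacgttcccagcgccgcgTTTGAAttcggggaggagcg
Cdca8: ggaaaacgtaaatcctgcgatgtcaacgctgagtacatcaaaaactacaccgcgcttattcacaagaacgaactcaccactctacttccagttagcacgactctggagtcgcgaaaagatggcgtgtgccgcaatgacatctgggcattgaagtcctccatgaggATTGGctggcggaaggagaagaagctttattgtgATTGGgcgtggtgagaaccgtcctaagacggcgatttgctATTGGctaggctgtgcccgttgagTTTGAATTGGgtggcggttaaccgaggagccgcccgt
Kif11: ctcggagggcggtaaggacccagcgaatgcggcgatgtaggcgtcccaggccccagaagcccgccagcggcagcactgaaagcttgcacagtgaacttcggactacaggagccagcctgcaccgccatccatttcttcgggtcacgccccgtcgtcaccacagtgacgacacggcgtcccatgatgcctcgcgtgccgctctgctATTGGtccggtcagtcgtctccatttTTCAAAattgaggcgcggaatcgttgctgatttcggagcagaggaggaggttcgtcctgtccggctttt
Cdc20: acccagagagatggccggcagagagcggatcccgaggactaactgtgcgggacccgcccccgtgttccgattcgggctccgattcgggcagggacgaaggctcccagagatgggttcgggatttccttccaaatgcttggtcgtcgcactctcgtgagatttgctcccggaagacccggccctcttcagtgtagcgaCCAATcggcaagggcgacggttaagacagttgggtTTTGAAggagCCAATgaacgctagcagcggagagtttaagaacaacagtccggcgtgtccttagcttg
Ube2c: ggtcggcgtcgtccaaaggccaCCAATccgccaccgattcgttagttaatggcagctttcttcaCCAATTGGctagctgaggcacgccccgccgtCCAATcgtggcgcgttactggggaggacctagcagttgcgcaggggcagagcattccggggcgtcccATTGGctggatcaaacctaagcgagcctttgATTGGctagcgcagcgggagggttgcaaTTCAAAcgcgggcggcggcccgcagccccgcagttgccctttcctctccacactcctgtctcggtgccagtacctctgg

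The windows lie at chr10:69352863-69353162 (minus strand) for Cdk1, chr13:100786437-100786736 (minus) for Ccnb1, chr9:70421505-70421804 (minus) for Ccnb2, chr7:122159185-122159484 (plus) for Plk1, chr4:124936868-124937167 (minus) for Cdca8, chr19:37376132-37376431 (plus) for Kif11, chr4:118437294-118437593 (minus) for Cdc20 and chr2:164769679-164769978 (plus) for Ube2c. Each covers the upstream flank and the first bases of the transcript. Cdc20 has its CHR core beginning 18 bases before the start, between NF-Y boxes that begin 53 and 8 bases before it. Ube2c has its core 29 bases before the start, on the opposite strand, and 6 NF-Y boxes. Ccnb1 has 2 NF-Y boxes and no TTTGAA in this window, which says only that these letters are not there.

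Promoter entries were found for 37 of the 45 members. TTTGAA stood on either strand in 28 of these 37 genes (75.7%), against 20.2% of all 27025 genes with an entry. Over windows in place of genes, it was in 77.5% of 40 member windows and in 17.9% of all 32851. The NF-Y box was in 28 of the 37 members as well (75.7%), against 41.1% of all genes. Both were present in 24 members (64.9%), against 7.97% of all genes. Of 32 DNA replication genes with an entry, which act earlier in the cell cycle, 4 (12.5%) held TTTGAA and 20 (62.5%) the NF-Y box. Close to the start, from 50 bases before it to 50 after, a CHR core was found in 26 members (70.3%) and in 5.72% of all genes. Of the members tested for a difference, 16 have an entry and 12 of them hold the CHR core. A match is a description of the letters and not a measured binding site.

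**Figure D1:**
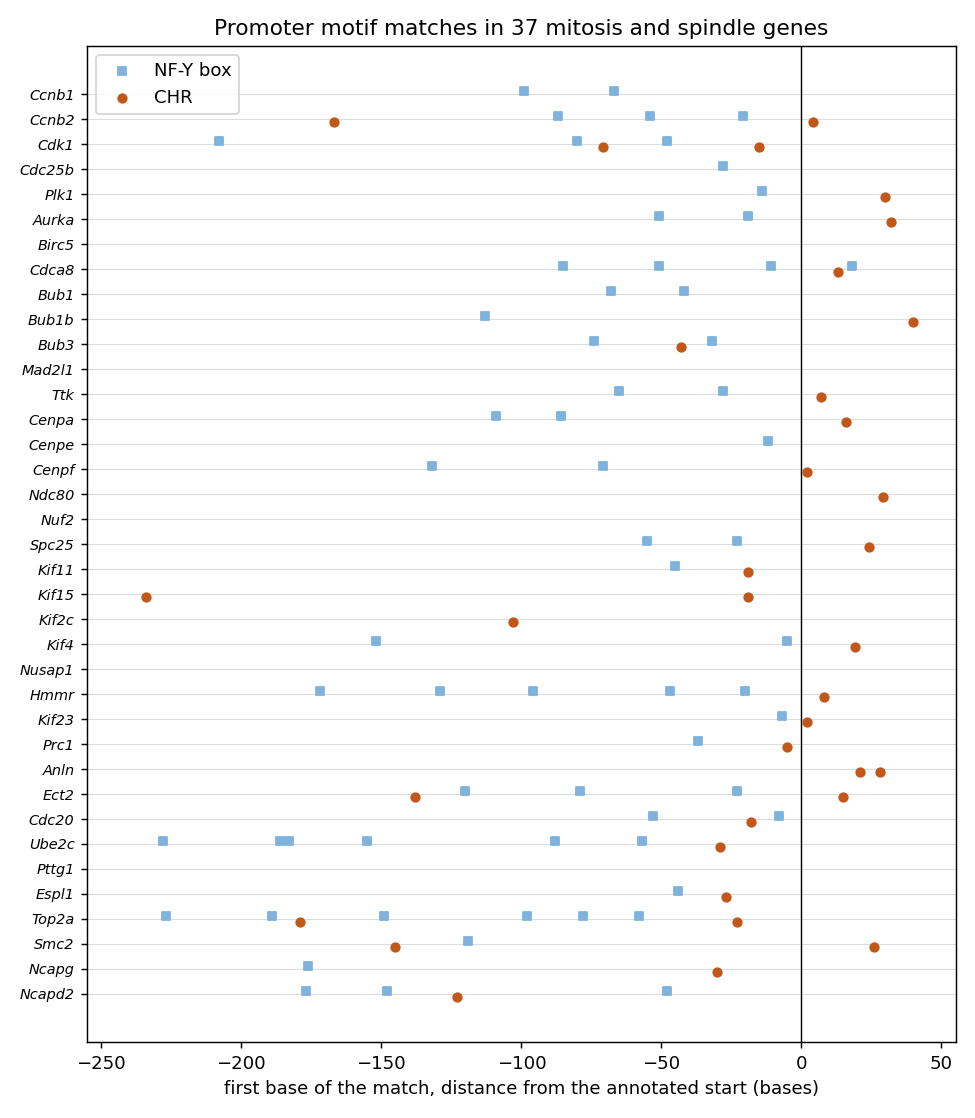
Matches to the CHR core (circles) and the NF-Y box (squares) in the first listed promoter window of 37 mitosis and spindle genes; the x axis is the distance in bases from the annotated start to the first base of the match, and each row is a gene. CHR cores cluster around the start, with NF-Y boxes mostly upstream, while Birc5, Mad2l1, Nuf2, Nusap1 and Pttg1 have neither.

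Total counts were 7206176 and 7128901 for control and 787600 and 1718944 for spermidine, so counting error is larger in the treated group. One row, AY036118, took 1.64% to 1.68% of control counts and 29.6% to 30.7% of spermidine counts. Counts fell on 862 of 1455 olfactory and vomeronasal receptor genes in spermidine replicate 1 and on 22 to 121 in the other libraries, which is 3.20 counts per kb of own sequence in that library and 0.0597 to 0.173 in the others. At that rate the receptor background predicts 7.40 of 66 counts for Ccnb1 in spermidine replicate 1, 9.14 of 76 for Cdk1, 4.92 of 62 for Ccnb2, 7.08 of 69 for Plk1, 5.20 of 79 for Cdca8, 5.53 of 98 for Cdc20 and 2.98 of 68 for Ube2c. For thinly counted members it predicts 1.52 of 5 for Mad2l1, 2.05 of 7 for Spc24, 0.927 of 5 for Kif2c and 1.45 of 4 for Ncapd2, and 3.32 each for Cenpf and Pttg1, which had 0. Of 14 germline markers, Ddx4, a defining one, had 1 count over the 4 libraries and Tfap2c had 0, while Nanos3 had 0 on only 12 own bases. Tex19.1 fell from 283 and 256 CPM to 41.2 and 17.8, while Ifitm3, Dppa3 and Pou5f1 rose (edgeR with Benjamini-Hochberg adjustment). Pou5f1 had 0 control counts and 2 and 42 in spermidine, and Dppa3 had 2 and 3 against 9 and 263. In spermidine replicate 1 the receptor background predicts 1.73 of the 2 for Pou5f1 and 2.61 of the 9 for Dppa3. It predicts 2.07 of 72 for Ifitm3.

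How many members could be measured depended on the table. It lists each RefSeq transcript as a row, and rows that share bases with another row received almost no counts there, so a gene is counted only on bases that belong to a single row, called its own bases here. Of the 45 members, 5 have 0 own bases, 17 have some but fewer than 300, and 23 have 300 or more. No count fell on 14 members in any library: Ccna2, Incenp, Bub1, Bub1b, Ttk, Cenpe, Kif15, Tpx2, Nusap1, Hmmr, Kif23, Ect2, Espl1 and Top2a. Top2a, the topoisomerase that untangles chromosomes, has 4 rows and 0 own bases, so its 0 counts do not show that it was silent. A floor of 3 counts is 0.434 to 0.435 CPM for control but 3.43 CPM for spermidine replicate 1 and 2.14 for replicate 2, and it limits only what could be counted. After the low-count filter 17 members were tested and 28 were not.

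**Figure D2:**
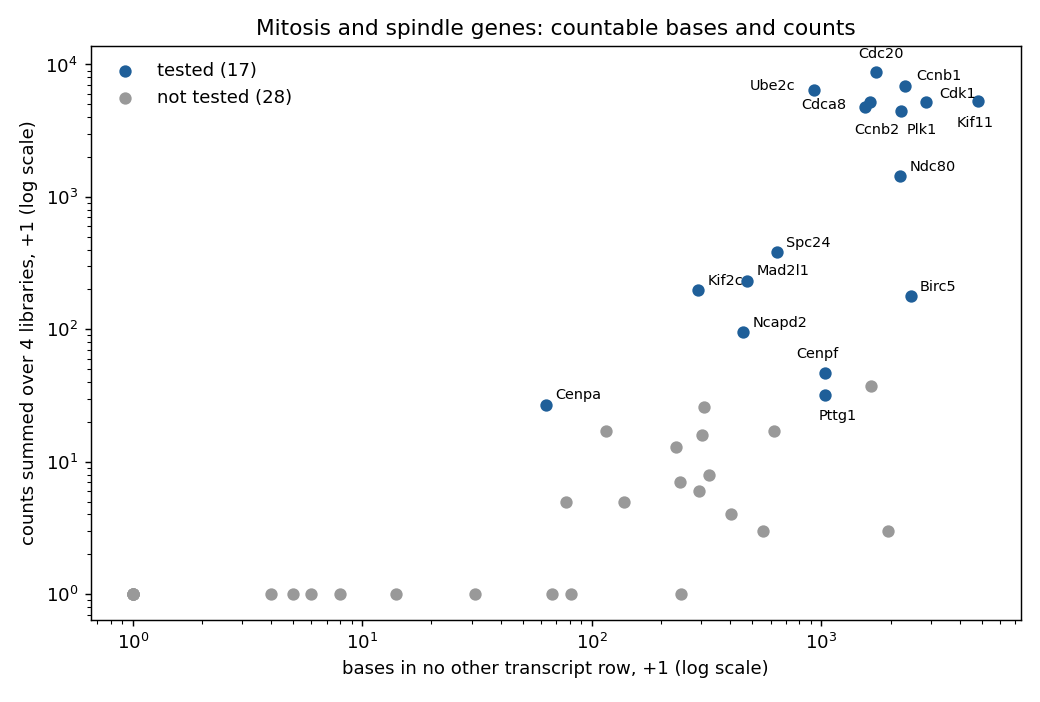
Own bases of each of the 45 members (x axis, plus 1, log scale) against its counts summed over the 4 libraries (y axis, plus 1, log scale), with tested members in blue and named and the others in grey. The members with the highest counts have many own bases, while Kif4 and Anln have many and few counts, and the members at the lower left have few own bases and 0 counts.

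Between spermidine and control, none of the 17 tested members passed an adjusted p of 0.05 in either direction (edgeR's quasi-likelihood test, Benjamini-Hochberg adjustment, 7836 genes), while 3.99% of all tested genes were called lower and 24.8% higher. At an unadjusted p under 0.05, 5 members had lower values (Ccnb1, Cdca8, Kif11, Cdc20 and Ube2c), where 10.2% of all tested genes did. The fitted value was below 0 for 16 of 17 members, against 45.7% of all tested genes, and the members' median log2 fold change was -1.01 against 0.23. Both spermidine libraries lay below both controls for 11 members and above both for 0, against 29.6% and 36.6% of all tested genes. Of the 17, 13 passed the filter's level in all 4 libraries, 2 in both controls but not in both spermidine libraries, and 2 in 1 library of each group. Requiring at least 1 CPM in all libraries leaves out genes near 0 in any library, control or spermidine. Cenpa, Cenpf and Pttg1 dropped out, each with 0 counts in a spermidine library. Among the tested genes kept, the median was -1.15 for 14 members and -0.34 for 5126 genes. Of those members 13 had a value below 0, against 59.4% of the genes, and both spermidine libraries lay below both controls for 10 of the 14 members and 40.1% of the genes. With the filter itself set to at least 1 CPM in all libraries, 0 of 14 members were called, while 0.86% of tested genes were called lower and 4.4% higher. In bulk RNA, fewer cells of a type and less RNA per cell cannot be told apart.

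Markers of other cell types moved between the same libraries. In summed CPM, the granulosa and theca list held 134 to 162 in the controls and 2335 and 7024 in spermidine (8 of 9 tested genes called higher, with Amh and Nr5a1 at 0 throughout). Cyp11a1 alone held 136 and 111 in the controls and 268 and 98.2 in spermidine. The other 12 genes of that list held 25.9 and 23.9 and then 2067 and 6926. The oocyte list held 1.45 to 2.60 and then 203.5 and 2237 (6 of 6 higher, Zp2, Nobox and Nlrp5 at 0 throughout). Ovarian surface epithelium genes held 0.434 to 0.868 and then 176 and 293 (6 of 6 higher), endothelial genes 0.579 to 1.45 and then 105 and 117 (3 of 3 higher, Pecam1, Cdh5, Tek and Emcn at 0 throughout), and fibroblast and stroma genes 6351 to 6744 and then 3753 and 12663 (6 of 10 higher and 1 lower). Vim alone held 6274 and 6562 of the control sums and fell to 1628 and 1467, and the other 10 stroma genes together held 77.1 and 181 in the controls and 2125 and 11196 in spermidine. In spermidine replicate 1 the receptor background predicts 12.4 of 49 counts for Tie1, 14.7 of 35 for Flt1 and 14.2 of 19 for Cdh1. It also predicts 9.79 of 16 for Bmp15, but only 8.05 of 127 for Foxl2 and 17.8 of 586 for Col3a1. The leukocyte list held 1344 to 1837 in the controls and 255 and 84.0 in spermidine (3 of 5 lower, Laptm5 and Spi1 at 0 throughout), and the mast cell list 230 to 349 and then 74.3 and 21.4 (2 of 3 lower, Ms4a2 and Fcer1a at 0 throughout). Erythroid and megakaryocyte genes held 869.5 to 1139 and then 297 and 537 (1 of 5 higher, 2 lower, Alas2 at 0 throughout). Without Itga2b, which led the controls, they held 308 and 195 and then 142 and 443. Germline genes held 282 to 296 and then 180 and 367 (3 of 5 higher, 1 lower), and without Tex19.1 12.6 and 25.8 and then 138 and 349.5. Many of the genes at 0 throughout could hardly be counted. Amh and Pecam1 have 0 own bases, Tek 12, Emcn 17, Nlrp5 21, Fcer1a 26 and Nr5a1 30. Zp2 has 42, Alas2 45, Cdh5 54 and Laptm5 85, so these 0 counts do not show absence. Ms4a2 has 131, Nobox 254 and Spi1 407. The part of these cell types in the values of the mitosis genes was not tested.

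**Figure D3:**
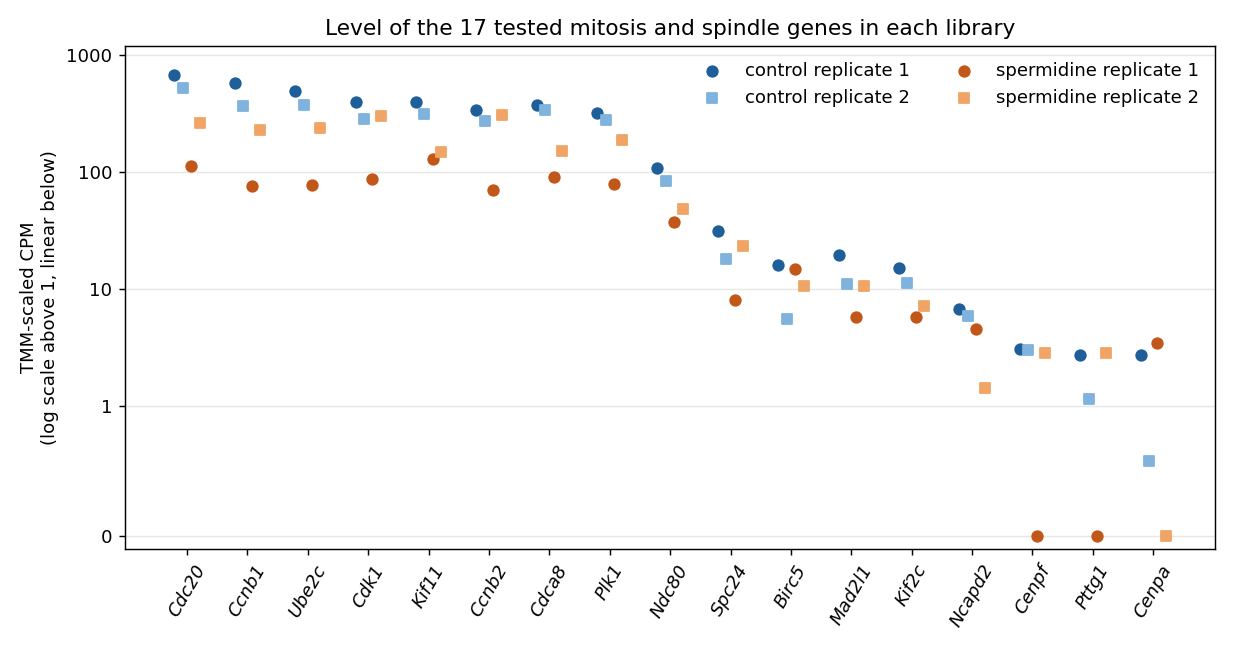
TMM-scaled CPM (y axis, logarithmic above 1 and linear below) of the 17 tested members in each library, with controls in blue and spermidine in orange, circles for replicate 1 and squares for replicate 2. Spermidine replicate 1 is the lowest library for each of the 8 abundant members on the left, and spermidine replicate 2 lies between it and the controls except for Ccnb2 and Cdk1, where it is within the control range.

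The genes that start mitosis differed in how far they lay from the controls. Ccnb1, cyclin B1, gave 3960 and 2546 control counts against 66 and 320 under spermidine, or 574 and 368 against 75.5 and 228 CPM. Both spermidine libraries lay below both controls, and the log2 fold change was -1.62 ± 0.64 (SE; edgeR, Benjamini-Hochberg adjusted p = 0.0923). Cdk1, the kinase it activates, stood at 402 and 282 CPM in the controls against 86.9 and 304 under spermidine (-0.79 ± 0.65, edgeR adjusted p = 0.396). Spermidine replicate 2 thus lay between the controls for Cdk1, while replicate 1 was 3.93-fold below their mean. Ccnb2, the second mitotic B-type cyclin, had 341 and 274 CPM against 70.9 and 309 (-0.68 ± 0.68, edgeR adjusted p = 0.493), again with replicate 2 inside the control range. The phosphatase genes Cdc25b and Cdc25c, whose products remove the inhibitory phosphates from CDK1, gathered only 2 and 16 counts, too few to test. Ccna2, cyclin A2, has 1 row with 0 own bases and 0 counts.

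Plk1, the polo kinase that matures centrosomes and promotes mitotic entry, gave 2191 and 1946 control counts against 69 and 263 under spermidine. In CPM these are 318 and 282 against 78.9 and 187, with both treated libraries below both controls (-1.15 ± 0.57, edgeR adjusted p = 0.17). Aurka, the spindle pole Aurora kinase, had 1 and 2 control counts and 1 and 0 in spermidine on 137 own bases, too few to test. In the chromosomal passenger complex, which corrects faulty kinetochore attachments, only Cdca8 was well counted. This gene, for the subunit borealin, gave 2578 and 2345 control counts against 79 and 215 under spermidine (374 and 339 CPM against 90.3 and 153). Its log2 fold change was -1.54 ± 0.54, with the smallest adjusted p among the members (0.0614, edgeR with Benjamini-Hochberg adjustment). Birc5, for the subunit survivin, had 110 and 38 control counts and 13 and 15 in spermidine. All fell on 1 of its 2 rows, which has 2444 own bases. The other row has 0 own bases, so its transcript could not be counted and the values describe only the counted row. For Birc5 the receptor background predicts 7.81 counts in spermidine replicate 1. At 15.9 and 5.50 CPM against 14.9 and 10.7 the groups overlapped (0.22 ± 0.89, edgeR adjusted p = 0.878). Aurkb, the kinase of the complex, had 2, 2, 0 and 1 counts on 292 own bases, and Incenp, its scaffold, had 0 counts on 4.

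Checkpoint genes were nearly unseen. Mad2l1, which blocks CDC20 until kinetochores are attached, had 134 and 77 control counts and 5 and 15 in spermidine on 475 own bases. That is 19.4 and 11.1 CPM against 5.72 and 10.7, with no overlap but a gap of under 0.5 CPM between the nearest libraries (-0.83 ± 0.85, edgeR adjusted p = 0.503). Bub3, a scaffold of the checkpoint complex, gave 11 and 5 control counts against 0 and 0 under spermidine and was not tested. The floor of 3 counts in the spermidine libraries lies above both of these control levels in CPM, so the 0 counts show no difference.

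Of the kinetochore genes, Ndc80, whose protein grips spindle microtubules, was the best measured. It gave 745 and 582 control counts against 33 and 68 under spermidine, or 108 and 84.2 against 37.7 and 48.4 CPM, with both spermidine libraries below both controls (-1.14 ± 0.56, edgeR adjusted p = 0.165). The receptor background predicts 7.03 of the 33 counts in spermidine replicate 1. Spc24, a subunit of the same complex, stood at 31.4 and 18.1 CPM in the controls against 8.004 and 23.5 under spermidine, which overlap (-0.57 ± 0.78, edgeR adjusted p = 0.621). The partner genes Nuf2 and Spc25 had 3 and 6 counts in all. Cenpa, the histone H3 variant that marks centromeres, had 19, 4, 3 and 0 counts on 62 own bases. Cenpf, a large kinetochore protein, had 21, 21, 0 and 4. Neither can be read beyond counting error: their log2 fold changes were -0.30 ± 1.55 and -0.81 ± 1.14.

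Among motors, Kif11, the kinesin that pushes spindle poles apart, gave 2760 and 2191 control counts against 113 and 209 under spermidine. Its CPM of 399.96 and 317 against 129 and 149 set both spermidine libraries close together and below both controls (-1.36 ± 0.51, edgeR adjusted p = 0.0782). It has 4819 own bases, the most of any member, and the receptor background predicts 15.4 of the 113 counts. Kif2c, a kinesin that shortens microtubules at centromeres, had 104 and 78 control counts and 5 and 10 in spermidine, all on the 289 own bases of 1 of its 8 rows. At 15.1 and 11.3 against 5.72 and 7.12 CPM the groups did not overlap (-1.01 ± 0.85, edgeR adjusted p = 0.412). Kif4, a chromosome kinesin, had 2 counts in all despite 1953 own bases, most of them in a predicted row.

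No member of the midzone and cytokinesis group could be tested. Anln, for the contractile ring protein anillin, gave 14 and 5 control counts against 16 and 1 under spermidine, and the receptor background predicts 5.27 of the 16. Kif20a, a midzone kinesin, had 9, 1, 5 and 0 counts and Prc1, which bundles midzone microtubules, had 17, 8, 0 and 0.

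Genes of anaphase and mitotic exit ranged from abundant to barely counted. Cdc20, the activator of the anaphase promoting complex, gave 4664 and 3628 control counts against 98 and 373 under spermidine. At 676 and 525 against 112 and 266 CPM both treated libraries lay below both controls, and the value of -1.66 ± 0.59 was the lowest of the members (edgeR adjusted p = 0.0664). It was called under upper-quartile scaling (-1.57, adjusted p = 0.0323) and by DESeq2 (-1.63, adjusted p = 0.0449), where 4.52% and 4.8% of all tested genes were called lower and 24.6% and 23.2% higher. Ube2c, the ubiquitin-conjugating enzyme that works with that complex, had 3387 and 2580 counts against 68 and 332, or 491 and 373 against 77.8 and 236 CPM (-1.44 ± 0.63, edgeR adjusted p = 0.121). Pttg1, securin, the inhibitor of separase, gave 19 and 8 control counts against 0 and 4 under spermidine (-0.18 ± 1.22, edgeR adjusted p = 0.932). In the chromosome structure group, Ncapd2, a condensin subunit, stood at 6.81 and 5.93 CPM in the controls against 4.57 and 1.42 under spermidine from 4 and 2 counts (-1.24 ± 0.99, edgeR adjusted p = 0.379). Ncapg, another condensin subunit, had 4, 7, 0 and 1 counts. Smc2 and Smc4, the ATPase core of condensin, had 1, 2, 0 and 1 counts and 4, 2, 1 and 0 counts, too few to test.

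**Figure D4:**
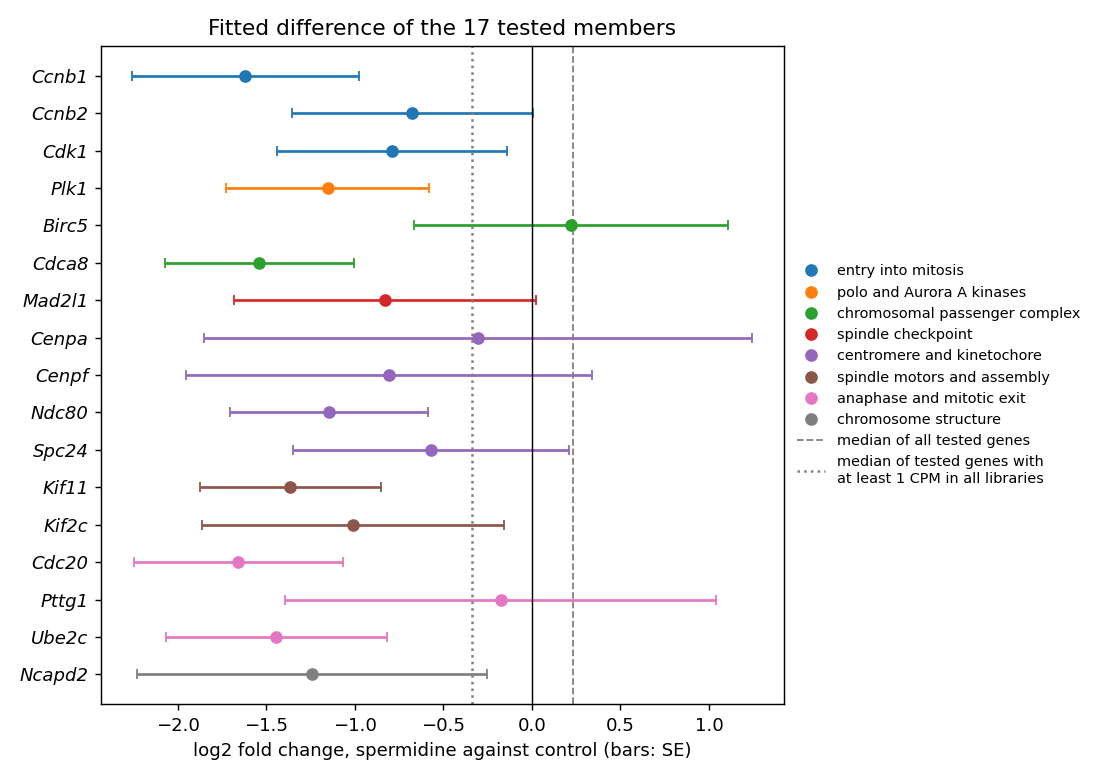
Fitted log2 fold change of spermidine against control with its SE for the 17 tested members, coloured by role; the dashed line is the median of all tested genes (0.23) and the dotted line that of tested genes with at least 1 CPM in all libraries (-0.34). Each member but Birc5 lies below 0, and none passes the adjusted threshold.

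Over all tested genes the treated libraries differed from each other more than the controls did (SD of the log2 ratio between replicates 1.87 against 0.80). For the 8 members with at least 50 counts in every library (Ccnb1, Ccnb2, Cdk1, Plk1, Cdca8, Kif11, Cdc20 and Ube2c), control replicate 1 exceeded replicate 2 by 0.14 to 0.64 on the log2 scale, while spermidine replicate 2 exceeded replicate 1 by 0.20 to 2.12. The mean control level was 2.77 to 6.24 times that of spermidine replicate 1 and 0.995 to 2.41 times that of replicate 2. Kif11 was lowest and Ccnb2 highest in the gap between treated libraries. For Kif11 the controls lay further apart than the treated libraries (0.34 against 0.20 on the log2 scale). With spermidine replicate 2 left out, all 8 were called lower (log2 fold changes from -1.42 for Kif11 to -2.60 for Ccnb1), in a fit where 15.4% of all tested genes were called lower, 32.1% higher and the single treated library was assumed to vary like the controls. With spermidine replicate 1 left out, edgeR called 0 of the 17 tested members, where 0.408% of all tested genes were called lower and 5.77% higher. In that fit 3 members had lower values at an unadjusted p under 0.05, where 14.7% of all tested genes did. The calls without replicate 2 therefore rest on 1 treated library, the one with 787600 counts and the higher receptor background. Without replicate 1 the log2 fold changes of the 8 ran from -1.27 for Kif11 to 0.00695 for Ccnb2. The median of the 17 tested members was then -0.87. That fit too assumed that its single treated library varies like the controls.

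Ratios between members inside a library do not depend on how libraries are scaled. Ccnb1 to Ccnb2 counts stood at 1.68 (95% exact Clopper-Pearson interval 1.60 to 1.77) and 1.34 (1.27 to 1.43) in the controls, and at 1.06 (0.741 to 1.53) and 0.737 (0.636 to 0.854) in spermidine. Cdc20 to Cdk1 stood at 1.68 and 1.86 against 1.29 (0.946 to 1.76) and 0.874 (0.758 to 1.01). Kif11 to Cdk1 stood at 0.996 and 1.12 in the controls, at 1.49 (1.10 to 2.02) in spermidine replicate 1 and at 0.489 (0.413 to 0.579) in replicate 2, so the treated libraries lay on opposite sides of the controls. Of the 28 ratios among the 8 members, compared without their intervals, 11 (39.3%) did not overlap between groups. That share was 57.2% for ratios among the 1539 genes with as many counts. The 28 ratios share their 8 genes and are not independent, and the difference between these shares was not tested. These intervals cover counting error only.

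**Figure D5:**
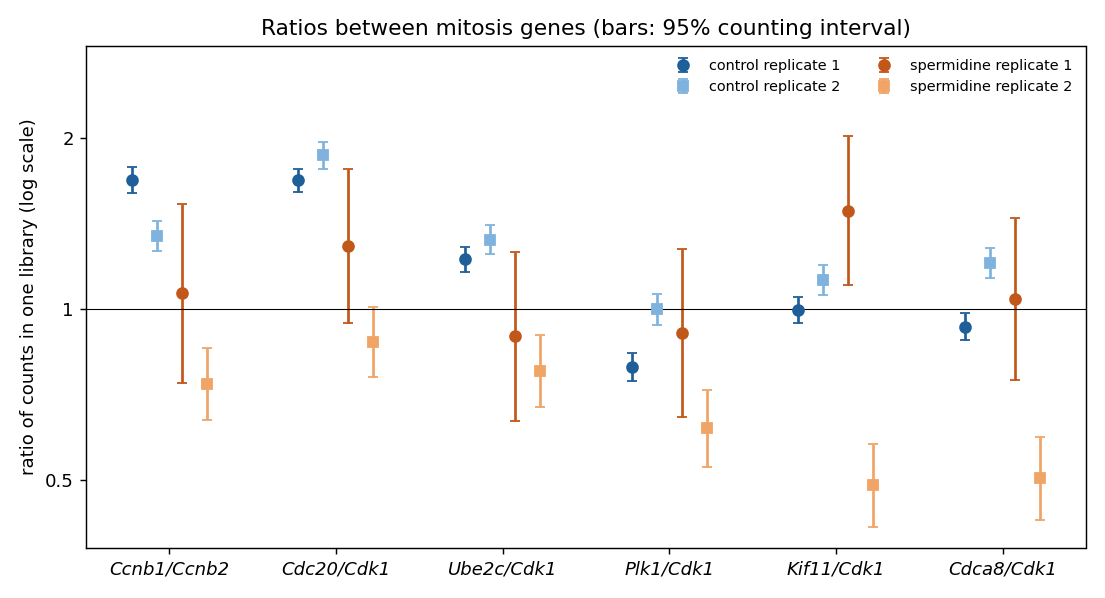
Ratio of the counts of a pair of mitosis genes inside each library (y axis, log scale; bars are 95% counting intervals), with controls in blue and spermidine in orange. Ccnb1/Ccnb2, Cdc20/Cdk1 and Ube2c/Cdk1 are lower in both spermidine libraries than in both controls, while Plk1/Cdk1, Kif11/Cdk1 and Cdca8/Cdk1 overlap or split. For each of the lower ratios the interval of spermidine replicate 1 still reaches a control value.

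Compared per kb of own bases, in TMM-scaled CPM, Ube2c stood highest in every library, at 527 and 401 in the controls and 83.5 and 254 in spermidine. Cdc20 followed at 390 and 303 in the controls and 64.7 in spermidine replicate 1, and ranked 3 in replicate 2 at 153, where Ccnb2 ranked 2 at 200.5. Cdca8, Ccnb1 and Ccnb2 took ranks 3 to 5 in both controls, at 159 to 248, and neighbours among them changed places between libraries. Plk1 was sixth in the controls at 143 and 127, then Cdk1 at 140 and 98.6, within the spread of the controls. Kif11 was eighth at 83.0 and 65.8. Ndc80, Spc24 and Kif2c lay lower at 28.2 to 52.0 in the controls, and Ndc80 and Spc24 changed places between them. In spermidine replicate 1 Ccnb1 ranked 7 at 32.6 and Cenpa ranked 4 from 3 counts on 62 own bases. In spermidine replicate 2 Cdk1 ranked 4 at 106, Cdca8 ranked 6 at 94.1 and Spc24 ranked 8 at 36.6.

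DNA replication genes gave a nearby reference. Of 40 listed, 24 were tested, 2 were called lower (Rrm2 and Mcm3) and 0 higher, against 3.99% and 24.8% of all tested genes. The median was -1.07 beside -1.01 for the mitosis genes. Mcm3 passed narrowly (-1.66 ± 0.54, edgeR adjusted p = 0.0490). Rrm2, a subunit of the enzyme that makes DNA precursors, gave 9572 and 6710 control counts against 91 and 218 under spermidine (-3.18 ± 0.58, edgeR adjusted p = 0.00737). The summed counts of the 8 abundant mitosis genes were 0.488 (95% exact interval 0.480 to 0.495) and 0.395 (0.389 to 0.402) of those of 10 replication genes with at least 50 counts in every library in the controls. In spermidine the ratio was 0.409 (0.372 to 0.449) and 0.613 (0.583 to 0.644), so the groups overlapped and the treated libraries differed. As a share of all counts outside AY036118, the 8 genes held 0.348% and 0.272% in the controls and 0.114% and 0.216% in spermidine.

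The other genes of the pathway were taken from 7 lists with 158 genes. Of the 74 tested, 4 were called higher and 3 lower, against 24.8% and 3.99% of all tested genes. Their median log2 fold change was -0.60. Among mitotic entry genes 0 of 8 were called. Haspin, the kinase that marks centromeric histone H3, had -1.64 ± 0.57 (edgeR adjusted p = 0.0614), and Cks2, a CDK1 adaptor, -1.71 ± 0.71 (adjusted p = 0.105). Of the anaphase promoting complex and its regulators 0 of 9 were called, with a median of -0.99, and its subunit gene Anapc4 had 2475 and 1929 counts against 105 and 157 (-1.46 ± 0.51, edgeR adjusted p = 0.0636). Fbxo5, an inhibitor of that complex, had -1.32 ± 0.56 (adjusted p = 0.114). Of the other centromere and kinetochore genes 0 of 13 were called, Cenpq having -2.03 ± 0.77 (adjusted p = 0.081) and Hjurp, the chaperone that loads CENP-A, 1.59 ± 0.65 (adjusted p = 0.104).

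In 3 of the lists some genes were called higher, where 24.8% of all tested genes were. Of the other spindle and cytokinesis genes, 1 of 11 rose: Kif14, a cytokinesis kinesin, with 10, 11, 8 and 16 counts (2.75 ± 0.85, edgeR adjusted p = 0.039), while Haus3, an augmin subunit that branches spindle microtubules, had -1.64 ± 0.58 (adjusted p = 0.0654). Of condensin and cohesin genes 2 of 8 rose: Ncapd3, a condensin II subunit, with 7, 4, 20 and 10 counts (4.08 ± 1.03, adjusted p = 0.0161) and Stag2, a cohesin subunit, with 4, 17, 15 and 26 (3.53 ± 0.94, adjusted p = 0.0212). All 3 rest on few counts, and the receptor background predicts 5.45, 5.94 and 4.47 of the counts in spermidine replicate 1 for Kif14, Ncapd3 and Stag2.

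Regulators of the mitotic programme were mixed. Foxm1, the activator named above, gave 2128 and 2522 control counts against 144 and 291 under spermidine (-0.85 ± 0.50, edgeR adjusted p = 0.239), with both treated libraries below both controls. E2f4, the E2F family member of the DREAM repressor, fell by 2.00 on the log2 scale, from 725 and 663 CPM to 181 and 167 (SE 0.52, edgeR adjusted p = 0.0188), the 1 call among 11 tested genes of this list. E2f8, a repressor of the same family, had 37 and 27 counts against 0 and 1 (-3.32 ± 1.41, adjusted p = 0.114). Mybl2, which encodes B-MYB, and Mki67, the proliferation marker Ki-67, had 0 counts on 4 and 0 own bases. Among G1 cyclins, CDKs and CDK inhibitors, 2 of 14 fell and 1 rose, where 3.99% of all tested genes were called lower and 24.8% higher. Ccne1, the cyclin of S phase entry, gave 1651 and 1468 control counts against 24 and 24 under spermidine. In CPM these are 239 and 212 against 27.4 and 17.1 (-3.38 ± 0.61, edgeR adjusted p = 0.0071). The receptor background predicts 6.25 of the 24 counts in spermidine replicate 1. The cyclin G gene Ccng1 fell by 1.73 on the log2 scale. Btg2, an antiproliferative gene, had 4 and 68 control counts, far apart, and 61 and 511 under treatment, a rise of 5.39 ± 1.16 (edgeR adjusted p = 0.00903). Cdkn1a, the CDK inhibitor p21, gave 18 and 33 control counts against 1 and 0 under spermidine (-2.98 ± 1.53, edgeR adjusted p = 0.183). Its control levels of 2.61 and 4.77 CPM, on 216 own bases, lie near the floor of 3 counts, 3.43 and 2.14 CPM in the spermidine libraries.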

How the data were processed

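RNA was measured in 4 libraries. Per the labels' protocols, RNA was sequenced as paired ends after mRNA selection, and kits of different makers are named for the libraries. HISAT2, DESeq2 and the build mm9 are listed, per the submitters' processing notes, without roles. No source used here names the counting program. The authors deposited whole-number counts per RefSeq transcript row, not normalised, and 80.8% of 106519 rows matched a symbol in RefSeq's GRCm38.p6 gene table, 89.4% of them inside that gene's span. Rows without own bases held at most 0.0014% of counts. Positions are printed as GRCm38, not as mm9.

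Rows were summed per gene, filtered with filterByExpr (count minimum 10, total minimum 15), scaled by TMM (factors 0.961, 0.973, 1.30 and 0.824) and tested with edgeR 4.0.16 (glmQLFit, glmQLFTest) in R 4.3.3, with 2 residual degrees of freedom. CPM divides a count by the filtered library total times its TMM factor. The procedure was tested on simulated data with the same dispersion for every gene and library, so unequal noise between libraries was not covered. Alternatives used limma 3.58.1 and DESeq2 1.42.0. Members, lists and tests were chosen with earlier results of these data known. Values per library were set for every called member, the 2 most abundant per role and Cdk1, Ccnb1, Plk1, Aurkb and Top2a, and for the 2 smallest p of each pathway list plus Foxm1, Mybl2, Ccne1, Cdkn1a and Mki67. Ccnb2, other members with few counts, Rrm2 and Ccng1 are examples chosen after their values were seen. Replicates differed beyond sampling noise (chi-square over degrees of freedom 52.6 in control, 31.6 in spermidine).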

Additional observations from a re-analysis of the deposited data

How the results depend on the processing

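No member was called higher under any of the 14 alternatives. Members called lower numbered 2 with upper-quartile scaling (Cdc20 and Cdca8), 1 with DESeq2 (Cdc20), and 0 to 8 with 1 library left out, 8 of them without spermidine replicate 2. The members' median log2 fold change was -1.87 to -0.76 with 1 library left out and stayed below 0 under each alternative, against -1.01. The value nearest 0 was at equal depth without AY036118, -0.57 over 11 members with 9 below 0, where Cdca8 was -0.74 and the median of all genes 0.19. All genes called, 2256, numbered 0 with no low-count filter, 275 with at least 1 CPM in all libraries, 817 at equal depth without AY036118, 1490 with the receptor background subtracted, and 0 to 3725 with 1 library left out (0 without control replicate 1, where 1926 had an unadjusted p under 0.05; 484 without spermidine replicate 1). With no filter 4255 genes had an unadjusted p under 0.05. Among single members, 12 values changed sign and 206 kept direction and side of the threshold, the others passing the threshold under an alternative. Each sign change is in a member with an adjusted p over 0.4. Birc5 was -0.27 with no filter, -0.0636 with the background subtracted, -0.34 without control replicate 2 and -0.01 without spermidine replicate 1. Cenpa was 0.0219 with DESeq2 and -6.10 to 1.26 with 1 library left out, reaching 1.08 without spermidine replicate 2. Pttg1 was 0.059 with the background subtracted and -6.29 to 0.60 with 1 library left out, with 0.60 without control replicate 1 and 0.54 without spermidine replicate 1. Spc24 was 0.25 at equal depth, and Ccnb2 was -2.06 to 0.00695 with 1 library left out, the latter without spermidine replicate 1. These causes were not tested. No shared replicate difference was seen: the correlation across genes of the replicate 1 minus replicate 2 differences was -0.03 between groups. It cannot exclude pairing, because the spermidine libraries also differ from each other in depth and receptor background. With the replicate block 1775 genes and 0 members were called, and the members' median was -1.02. Depth limits the spermidine libraries most, where a floor of 3 counts is 3.43 and 2.14 CPM.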
